A study of Saccharomyces cerevisiae with 46 samples.

Results

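The measurements described here compare where meiotic DNA double-strand breaks (DSBs) formed in *hop1-loop2 rad50S* and in *rad50S* cells of budding yeast, region by region along the 16 chromosomes. The members were the 4 CC-seq libraries whose titles name these genotypes, 2 replicates of each, out of 46 samples in the series and 6 CC-seq libraries. For each library the hits on both strands were summed in fixed tiles of 10 kb counted from position 1 of each chromosome of the SK1 assembly ASM205788v1, which gave 1214 tiles. Both genotypes are diploid SK1 strains that carry *rad50S*, and both were collected 6 h after the induction of meiosis, so that the *hop1-loop2* allele is the named difference between them. The study's strain table also lists the *HIS4::LEU2* recombination reporter, which lies on chromosome III, in the *rad50S* strain. The full genotype of the *hop1-loop2 rad50S* strain is not given in the sources used here. Each genotype is represented by 1 strain, and differences between the strains other than *hop1-loop2* cannot be told apart from it. The methods describe replicates as independent biological samples.

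In meiosis the topoisomerase-like protein Spo11 cuts both strands of the DNA to start recombination, and it stays bound to the 5′ ends until nucleases of the Mre11-Rad50-Xrs2 complex release it. In *rad50S* cells this release fails, so that Spo11-bound ends accumulate at the sites where they were made, and CC-seq reads their positions. DSBs form on chromatin loops whose bases are held by the meiotic chromosome axis. Hop1, a HORMA-domain protein of that axis, recruits the factors that Spo11 needs. Hop1 reaches the axis through Rec8 cohesin and the core protein Red1 and, in addition, through its own chromatin-binding region, which contacts nucleosomes. The *hop1-loop2* allele replaces basic residues of a DNA-contacting loop in that region with alanine. The comparison asks over which lengths of chromosome the share of breaks differs with this allele.

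Values are HpM, hits relative to a library total of 1000000. A gain of one tile is therefore a loss of others, and the total number of breaks is not visible. The paper reports lower DSB levels in *hop1-loop2* by Southern blotting in a *rad50S* background. A gain of share is therefore not by itself a gain of breaks. The libraries held 7730583 and 7577582 hits in *rad50S* and 6277735 and 7985420 hits in *hop1-loop2 rad50S*. The median tile held between 2869 and 4614.5 hits, depending on the library. No annotation of this assembly was used here, so tiles are named by position and the genes, centromeres or promoters in them are not given.

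The share of hits differed between the 2 genotypes in most tiles. Of 1213 tiles with a hit, 380 gained share in *hop1-loop2 rad50S* and 600 lost share (limma with Benjamini-Hochberg adjustment, adjusted p below 0.05), 31.3% and 49.5% of the tiles tested, or 80.8% together. The 380 gaining tiles held 29.0% and 27.3% of all hits in *rad50S* and 58.5% and 59.0% in *hop1-loop2 rad50S* (replicates 1 and 2 in this order, also below). The 600 losing tiles held 53.2% and 55.7% in *rad50S* and 24.0% and 23.8% in *hop1-loop2 rad50S*. The 233 tiles that were not called held 17.8% and 17.1% in *rad50S* and 17.5% and 17.2% in *hop1-loop2 rad50S*. These tiles were called on the same libraries, so the sums describe the size of the change and are no further test of it.

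The changes were large against the difference between replicates. The median tile differed 0.89 on the log2 scale between the genotypes, 0.16 between the *rad50S* replicates and 0.11 between the *hop1-loop2 rad50S* replicates. In 1095 tiles (90.3%) the replicates of one genotype did not overlap those of the other, and of these tiles 440 were higher and 655 lower in *hop1-loop2 rad50S*. Among the called tiles the median ratio of *hop1-loop2 rad50S* to *rad50S* was 1.96 in gaining and 0.430 in losing tiles. At least 2-fold changes were found in 184 gaining and 361 losing tiles, and at least 4-fold changes in 42 and 93. Over all tiles the log2 levels of replicates had a correlation of 0.988 in *rad50S* and 0.995 in *hop1-loop2 rad50S*, while libraries of different genotypes had correlations from 0.70 to 0.74, as a description over 1213 tiles that are not independent of their neighbours. The log2 change computed from the replicates numbered 1 and that computed from the replicates numbered 2, which share no library, had a correlation of 0.98.

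**Figure D1:**
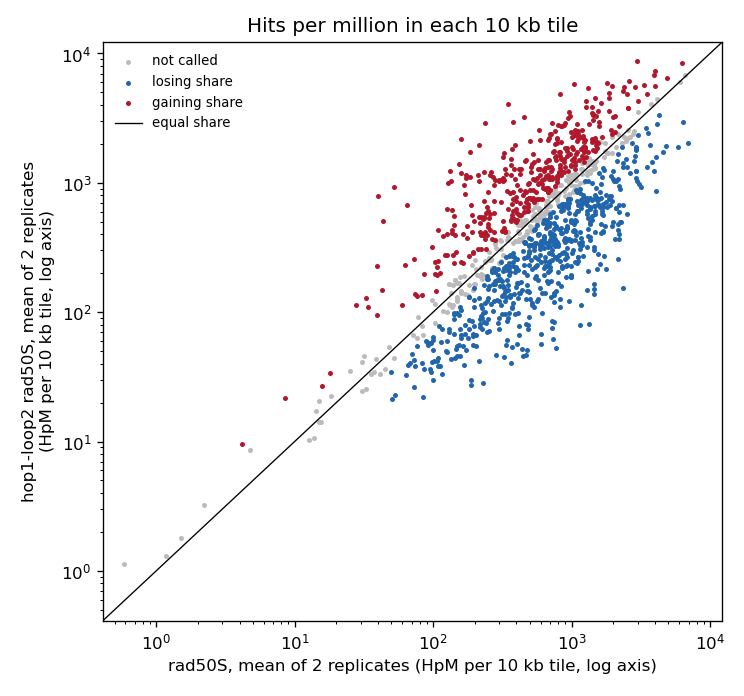
Each point is a 10 kb tile, placed by its mean HpM in 2 *rad50S* replicates (horizontal log axis) and 2 *hop1-loop2 rad50S* replicates (vertical log axis), and coloured by its limma call. The 380 gaining tiles lie above the line of equal share and the 600 losing tiles below it, and both are spread over the whole range of *rad50S* levels.

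The balance of gaining and losing tiles depended on the scaling. The median of all tiles was -0.30 on the log2 scale. After each library was centred on its median tile, 510 tiles were higher and 465 lower. The count tests on recovered reads gave 468 and 501 (edgeR) and 491 and 487 (DESeq2). Each of these 3 settings called higher all 380 tiles named here as gaining, and they called lower 465, 501 and 487 of the 600 named as losing. Of the 494 tiles with a higher mean in *hop1-loop2 rad50S*, the 70 with the largest gains made up 50% of all share gained, and of the 719 with a lower mean, the 113 with the largest losses made up 50% of all share lost.

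The tiles with the largest gain of share were found on chromosomes II, XIII and VIII. On chromosome II, the tile from 710001 to 720000 had 3186 and 2783 HpM in *rad50S* and 9022 and 8375 HpM in *hop1-loop2 rad50S*, a log2 change of 1.55 (SE 0.13, limma adjusted p = 4.44e-07). By the mean it held the most hits of all tiles in *hop1-loop2 rad50S*, at 8698 ± 457 HpM (SD, n = 2). On chromosome XIII, the tile from 330001 to 340000 had 1090 and 981 HpM in *rad50S* and 6043 and 5613 HpM in *hop1-loop2 rad50S*, a log2 change of 2.49 (SE 0.12). On chromosome VIII, the tile from 110001 to 120000 had 1579 and 1040 HpM in *rad50S* and 4885 and 5927 HpM in *hop1-loop2 rad50S*, a log2 change of 2.07 (SE 0.18). In each of these tiles the lower *hop1-loop2 rad50S* replicate was more than 2 times the higher *rad50S* replicate. With every strand position counted as 1, the log2 changes were 0.41, 1.03 and 0.72 in the same order.

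The largest losses of share lay on chromosomes XVI, II and XIII. By the mean, the tile on chromosome XVI from 340001 to 350000 held the most hits of all tiles in *rad50S*, with 6382 and 7396 HpM, and had 1895 and 2140 HpM in *hop1-loop2 rad50S* (log2 change -1.77, SE 0.13, limma adjusted p = 1.37e-07). On chromosome II, the tile from 650001 to 660000 had 6500 and 5274 HpM in *rad50S* and 1812 and 2000 HpM in *hop1-loop2 rad50S* (log2 change -1.62, SE 0.14). On chromosome XIII, the tile from 360001 to 370000 had 6825 and 5887 HpM in *rad50S* and 3182 and 2762 HpM in *hop1-loop2 rad50S* (log2 change -1.10, SE 0.14). The groups did not overlap in these 3 tiles, but this was a condition for naming a tile. All 3 tiles still had more hits than the median tile of *hop1-loop2 rad50S*, 466 HpM. With every strand position counted as 1, their log2 changes were -0.58, -0.50 and -0.39.

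Relative to their own level, other tiles changed most. Among tiles with a mean of at least 50 HpM over the genotypes the largest log2 change was 4.27, in the tile on chromosome III from 120001 to 130000, which had 42.7 and 37.1 HpM in *rad50S* and 722 and 850 HpM in *hop1-loop2 rad50S*. It passed this minimum only through *hop1-loop2 rad50S*, so its place in the order is a description. On chromosome X, the tile from 440001 to 450000 had 50.4 and 53.7 HpM in *rad50S* and 822 and 1022 HpM in *hop1-loop2 rad50S* (log2 change 4.11, SE 0.15). On chromosome IV, the tile from 460001 to 470000 had 147 and 169 HpM in *rad50S* and 1842 and 2507 HpM in *hop1-loop2 rad50S* (log2 change 3.76, SE 0.15). All 3 tiles were below the median tile of *rad50S*, 596 HpM, and above the median tile of *hop1-loop2 rad50S*. With every strand position counted as 1, the log2 changes were 2.25, 1.93 and 1.69 in the same order. For the tile on chromosome III the distance to the *HIS4::LEU2* construct was not determined.

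The lowest log2 change, -4.03 (SE 0.13), was that of the tile on chromosome XII from 110001 to 120000, which had 1227 and 1436 HpM in *rad50S* and 81.2 and 79.8 HpM in *hop1-loop2 rad50S*. The next were adjacent tiles on chromosome VII. The tile from 440001 to 450000 had 832 and 715 HpM in *rad50S* and 54.8 and 51.0 HpM in *hop1-loop2 rad50S* (log2 change -3.84, SE 0.14). The tile from 450001 to 460000 had 2533 and 2213 HpM in *rad50S* and 152 and 153 HpM in *hop1-loop2 rad50S* (log2 change -3.95, SE 0.12). These tiles were above the median tile in *rad50S* and far below it in *hop1-loop2 rad50S*. With every strand position counted as 1, their log2 changes were -1.55, -1.63 and -1.88 in the same order.

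The redistributed share is the percentage of all hits that would have to change tile to turn one profile into the other. Between the genotype means it was 31.4%, compared to 6.40% between the *rad50S* replicates and 4.24% between the *hop1-loop2 rad50S* replicates. The 4 pairs of single libraries of different genotypes gave 30.3%, 30.9%, 32.6% and 32.9%, and all were at least 4 times as large as either replicate value. With 2 libraries against 2, the two-sided exact permutation test gave p = 0.333, which is the smallest it can give. The value depends on repeated hits. It was 14.5% when a strand position counted as 1 however many hits it had, which removes copied reads and repeated breaks together.

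The redistributed share was larger between tiles than between whole chromosomes. By its definition it cannot rise when tiles are joined, so a fall with tile size is built into the measure. With tiles of 1 kb the redistributed share was 35.5%, and tiles of 10 kb captured most of it. It was 33.8% with tiles of 5 kb, 27.2% with 20 kb, 21.1% with 50 kb and 15.9% with 100 kb, which is 50.6% of the value at 10 kb. Between whole chromosomes it was 4.80%, or 15.3% of the value at 10 kb. The genotype difference was 3.43 times the larger replicate difference for whole chromosomes and between 4.12 and 5.12 times that difference at every tile size tested.

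**Figure D2:**
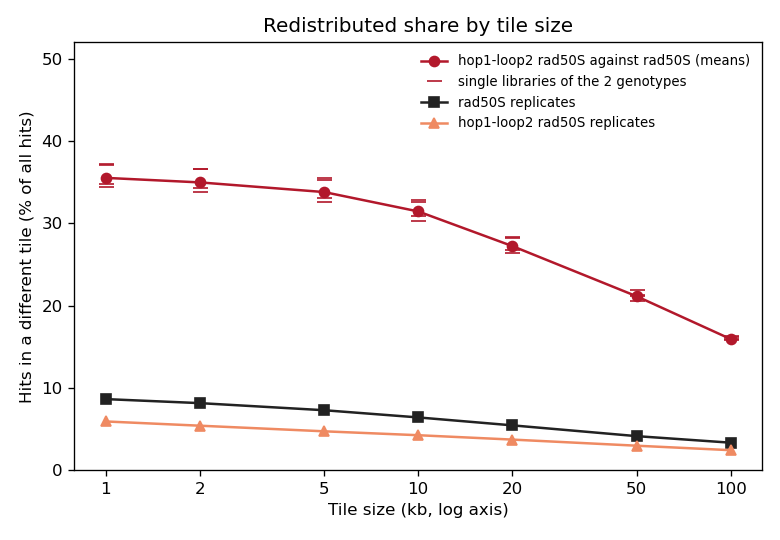
The share of hits that lie in a different tile (percent of all hits) is plotted against tile size (kb, log axis) for the 2 genotype means, for single libraries of the 2 genotypes (dashes) and for the replicates of each genotype. The genotype curve falls from 35.5% at 1 kb to 15.9% at 100 kb and stays above both replicate curves, which start at 8.63% and 5.91%.

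Within each chromosome the pattern was similar. When hits were scaled to the total of their own chromosome, between 24.6% (chromosome IX) and 37.3% (chromosome XIV) of them had to change tile. These values were 3.66 to 6.08 times the larger replicate value of the same chromosome on all 16 chromosomes. Both gaining and losing tiles were present on every chromosome, but the balance differed. On chromosome I, 22 of 23 tiles lost share and 1 gained. On chromosome IX, where losing tiles were least common, 16 of 45 lost share and 16 gained. Chromosome VI was closest to chromosome I, with 22 of 30 tiles losing and 3 gaining. Without chromosomes I, III and VI, the 3 shortest, the redistributed share was 31.1%, and 357 tiles gained and 559 lost.

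**Figure D3:**
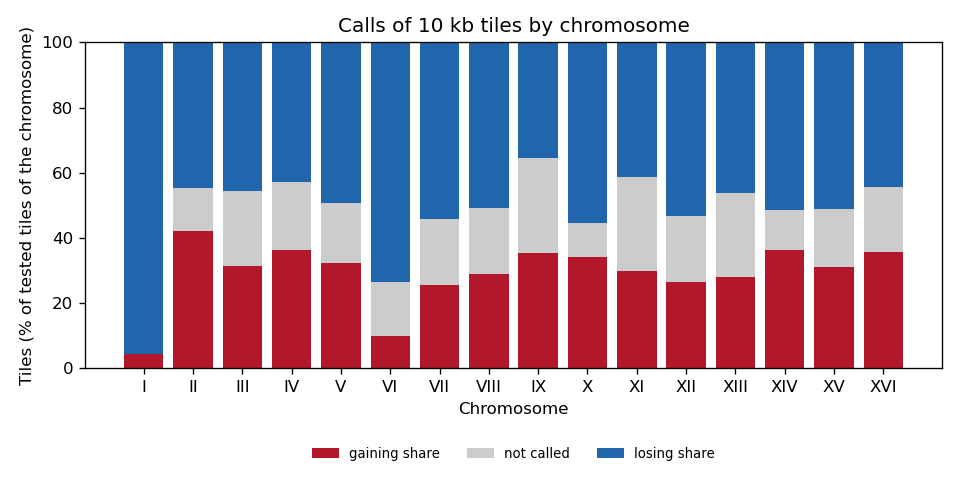
Stacked bars give the percentage of tested 10 kb tiles of each chromosome that gained share, were not called or lost share in *hop1-loop2 rad50S*. Losing tiles make up 95.7% of chromosome I and 73.3% of chromosome VI, against 35.6% of chromosome IX, and gaining tiles are found on all 16 chromosomes.

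Gaining and losing tiles formed runs. A run is a stretch of adjacent tiles of one chromosome that were called in the same direction. The 380 gaining tiles formed 184 runs with a mean of 2.07 tiles, and the 600 losing tiles formed 232 runs with a mean of 2.59 tiles. Single tiles made up 109 of the gaining and 106 of the losing runs. Runs of at least 3 tiles numbered 45 and 75, and they held 55.5% of the gaining and 65.3% of the losing tiles. The longest gaining run had 16 tiles (160 kb) and the longest losing run 21 tiles (210 kb). Runs were not recomputed after median centring or with edgeR and DESeq2, which called 465, 501 and 487 losing tiles. Run lengths under those settings are therefore not known. Of 790 pairs of neighbouring tiles that were both called, 564 (71.4%) changed in the same direction, and at the other 226 a gaining tile bordered a losing one. Gaining tiles were 38.8% of the called tiles, and losing tiles 49.5% of the tested tiles. At such frequencies runs and like pairs arise in any order of tiles, and no expected value was computed.

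The size of the change, more than the length of stretches with one sign, set the genotypes apart from the replicates. When a tile counted as changed only if 2 single libraries differed by at least 1.5 times, replicate 1 of *rad50S* and of *hop1-loop2 rad50S* gave 31 gaining and 58 losing runs of at least 3 tiles, and the replicates numbered 2 gave 31 and 66. Between replicates of one genotype there were 0 such runs, as 32 tiles of *rad50S* and 4 tiles of *hop1-loop2 rad50S* passed 1.5 times. By the sign of the difference alone, replicates also formed long runs, of up to 13 tiles in *rad50S* and 15 tiles in *hop1-loop2 rad50S*, compared to 21 tiles between the genotypes. No expected length was computed for such runs, so their length alone does not show that small differences between replicates were regional.

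Runs chosen in one pair of libraries were measured in the other pair, which shared no library with the first. All 31 gaining and 58 losing runs of at least 3 tiles chosen in the replicates numbered 1 had the same direction in the replicates numbered 2 and changed by at least 1.5 times, with a median log2 change of 1.502 for gaining and -1.49 for losing runs. In the opposite order all 31 gaining and 66 losing runs kept their direction, and 65 of the 66 losing runs passed 1.5 times.

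The reach of the change along the chromosome was described by the correlation of the log2 change at one tile in the replicates numbered 1 with that at a tile some distance away in the replicates numbered 2. It was 0.43 at 10 kb, 0.29 at 20 kb, 0.24 at 30 kb, 0.18 at 40 kb and 0.13 at 50 kb, and it lay between -0.02 and 0.07 from 60 kb to 100 kb. The log2 difference between replicates of one genotype was also correlated with itself over such distances, with 0.26 (*rad50S*) and 0.31 (*hop1-loop2 rad50S*) at 10 kb and 0.10 and 0.12 at 50 kb. These correlations rest on 1052 to 1196 pairs of tiles, which share libraries and overlap, and they are given without a test.

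The longest gaining run lay on chromosome IV from 440001 to 600000. Its 16 tiles together had 8000 and 7761 HpM in *rad50S* and 21537 and 22420 HpM in *hop1-loop2 rad50S*, a ratio of 2.79. The log2 changes of its tiles ranged from 0.46 to 3.76, and the 3 tiles at its left end (from 440001 to 470000) had 3.21, 3.21 and 3.76. In *rad50S* these 3 tiles were among the low ones of the run, with 121 to 189 HpM each, and in *hop1-loop2 rad50S* they had 1170 to 2507 HpM. To the right the run ended at a losing tile with a log2 change of -0.62.

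The next gaining runs were shorter. On chromosome X, 9 tiles from 70001 to 160000 had 6233 and 6049 HpM in *rad50S* and 13367 and 13564 HpM in *hop1-loop2 rad50S*, a ratio of 2.19. On chromosome XIV, 8 tiles from 590001 to 670000 had 4709 and 4728 HpM in *rad50S* and 11956 and 13539 HpM in *hop1-loop2 rad50S*, a ratio of 2.70. The tile with the lowest *rad50S* level of the run on chromosome X changed most (log2 change 2.32). In the run on chromosome XIV the tiles from 630001 to 650000, the lowest in *rad50S*, had log2 changes of 2.22 and 2.57. The tile to their left, with 387 and 351 HpM in *rad50S*, had 2.31. In the run on chromosome IV the tile lowest in *rad50S*, with 57.4 and 68.0 HpM, had 1.88. The lowest tile of a run was thus not always the most changed.

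The longest losing run covered chromosome I from 20001 to its last position with a hit, 228829. Its 21 tiles together had 23979 and 21269 HpM in *rad50S* and 8002 and 8847 HpM in *hop1-loop2 rad50S*, a ratio of 0.372. The log2 changes ranged from -3.55 to -0.36. The tile that was least changed, from 130001 to 140000, had 3158 and 2861 HpM in *rad50S* and 2153 and 2557 HpM in *hop1-loop2 rad50S*, and it was the strongest tile of the chromosome in both genotypes. Without replicate 1 of *hop1-loop2 rad50S* the tile was not called, and the longest losing run was then 130 kb, on chromosome VII. With a change of at least 1.5 times required as well, the longest losing run was 120 kb. The log2 change of the least changed tile, -0.36, was close to the median of all tiles, -0.30. Whether this run stays whole after median centring was not tested.

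On chromosome VII the 13 tiles from 10001 to 140000 had 8043 and 8542 HpM in *rad50S* and 3845 and 3844 HpM in *hop1-loop2 rad50S*, a ratio of 0.464. This run began 1 tile from the chromosome end and stopped at 3 adjacent gaining tiles, whose log2 changes were 0.43, 1.28 and 0.37. On chromosome XIV the 12 tiles from 70001 to 190000 had 10955 and 12370 HpM in *rad50S* and 4960 and 4750 HpM in *hop1-loop2 rad50S*, a ratio of 0.416. Chromosome III held a gaining run as long as that on chromosome XIV and a losing run as long as that on chromosome XIV, and in these ties the run with the larger change of share is described above and plotted. The gaining run, 8 tiles from 90001 to 170000, had 857 and 790 HpM in *rad50S* and 5001 and 5262 HpM in *hop1-loop2 rad50S*, a ratio of 6.23, the highest of these runs. The losing run, 12 tiles from 220001 to 340000, had 8847 and 8002 HpM in *rad50S* and 3570 and 3127 HpM in *hop1-loop2 rad50S*, a ratio of 0.397. Chromosome XIV was the chromosome with the most redistribution within it. The ratios of all these runs describe tiles called on the same libraries and carry no test of their own.

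**Figure D4:**
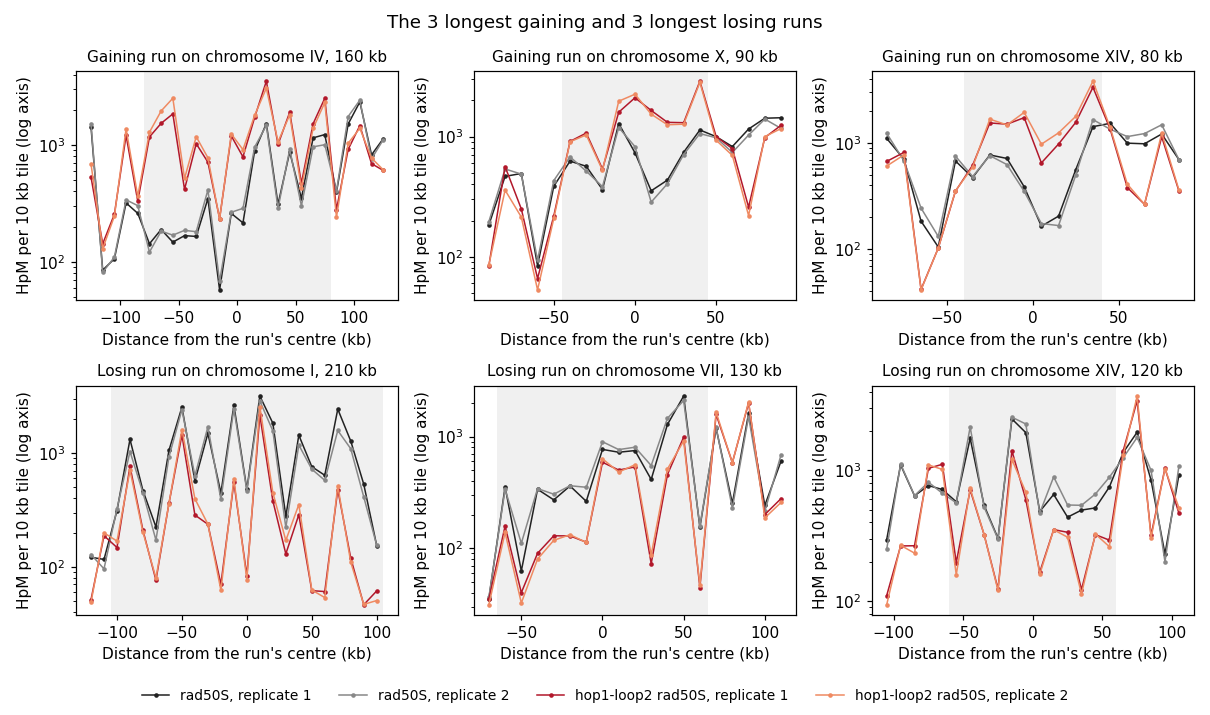
For the 3 longest gaining runs (top) and the 3 longest losing runs (bottom), with ties in length settled by the larger change of share, HpM per 10 kb tile (log axis) is plotted against the distance from the centre of the run (kb) in each of the 4 libraries, and grey shading marks the run. The replicates of a genotype follow each other closely, and inside the shading both *hop1-loop2 rad50S* lines lie on one side of both *rad50S* lines, by a ratio of 2.19 to 2.79 in the gaining and 0.372 to 0.464 in the losing runs plotted.

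Not all large changes were part of a run. The tiles with the largest gain on chromosomes II and XIII were single tiles whose neighbours lost share or were not called. On chromosome XIII, a stretch chosen after its values were seen, the gaining tile from 330001 to 340000 was followed by 3 losing tiles with log2 changes of -1.77, -1.71 and -1.10, the last of which was the strongest of the region in *rad50S*. The tiles from 370001 to 390000 after them gained. The first rose from 292 and 260 HpM to 760 and 677 HpM, and the second from 846 and 727 HpM to 1958 and 2082 HpM. In *rad50S* the strongest tile of this stretch was thus the one from 360001 to 370000, and in *hop1-loop2 rad50S* it was the one from 330001 to 340000.

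On chromosome II the losing tile from 650001 to 660000 and the gaining tile from 710001 to 720000 were 50 kb apart. The tiles from 660001 to 680000 between them lost share (log2 changes of -0.47 and -1.23) and those from 680001 to 700000 gained (1.17 and 0.56). In contrast, the loss on chromosome VII was continuous from 440001 to 490000. Its 5 tiles had log2 changes of -3.84, -3.95, -3.13, -1.82 and -2.61, between a gaining tile on the left (0.78) and a tile that was not called on the right.

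Tiles at all levels of *rad50S* signal took part. To avoid ranking and comparing in the same library, tiles were ranked in 1 *rad50S* library and the share was compared between the other *rad50S* library and *hop1-loop2 rad50S*. The 243 tiles with the fewest hits together gained share, by a ratio of 1.92 when ranked in replicate 2 and 1.504 when ranked in replicate 1. The 242 tiles with the most hits lost share, with ratios of 0.835 and 0.887. Ranked in replicate 2, 87 tiles of the lowest group were called gaining and 89 losing, and in the highest group 57 and 145. When ranked in replicate 1, the counts were 76 and 99 in the lowest group and 65 and 137 in the highest. Over all tested tiles 31.3% gained and 49.5% lost. Unlike the ratios, these calls used all 4 libraries, including the one that ranked the tiles, so the counts are descriptions. Both directions were found at both ends.

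Losing tiles were more frequent within 100 kb of the chromosome ends than farther inside. The 73 tiles whose middle was within 20 kb of an end together held 1.18% and 1.17% of the hits in *rad50S* and 0.705% and 0.632% in *hop1-loop2 rad50S*, a ratio of 0.569. The ratio was 0.691 from 20 to 50 kb, 0.772 from 50 to 100 kb, 1.02 from 100 to 200 kb and 1.08 farther inside. Without chromosomes I, III and VI, a setting added after seeing the data, the same 5 ratios were 0.532, 0.765, 0.887, 1.04 and 1.08. Losing tiles made up 58.9% of tiles within 20 kb of an end, 65.6% of those from 20 to 50 kb and from 50 to 100 kb, 43.6% from 100 to 200 kb and 44.2% over 200 kb away. Gaining tiles made up 8.22%, 19.8%, 22.5%, 34.5% and 36.9% in the same order.

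Hits were less evenly spread over tiles in *hop1-loop2 rad50S*. The Gini coefficient, which is 0 when all tiles hold the same number of hits and 1 when a single tile holds all, was 0.483 and 0.471 in *rad50S* and 0.561 and 0.562 in *hop1-loop2 rad50S*. The difference of 0.085 was larger than the spread between replicates, although 2 against 2 libraries cannot give an exact permutation p below 0.333. The effective number of tiles, the number of equally used tiles that would give the same Shannon entropy, was 807 and 829 in *rad50S* and 693 and 693 in *hop1-loop2 rad50S*. The 121 strongest tiles of each library held 34.2% and 33.0% of the hits in *rad50S* and 40.1% and 40.0% in *hop1-loop2 rad50S*.

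Both ends of the distribution grew. Tiles below 100 HpM numbered 82 and 78 in *rad50S* and 153 and 166 in *hop1-loop2 rad50S*, and tiles above 2000 HpM numbered 92 and 97 in *rad50S* and 113 and 121 in *hop1-loop2 rad50S*. The weaker 50% of the tiles held 17.4% and 18.0% of the hits in *rad50S* and 12.7% and 12.4% in *hop1-loop2 rad50S*. Counting every strand position as 1 reduced the difference in the Gini coefficient to 0.031.

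**Figure D5:**
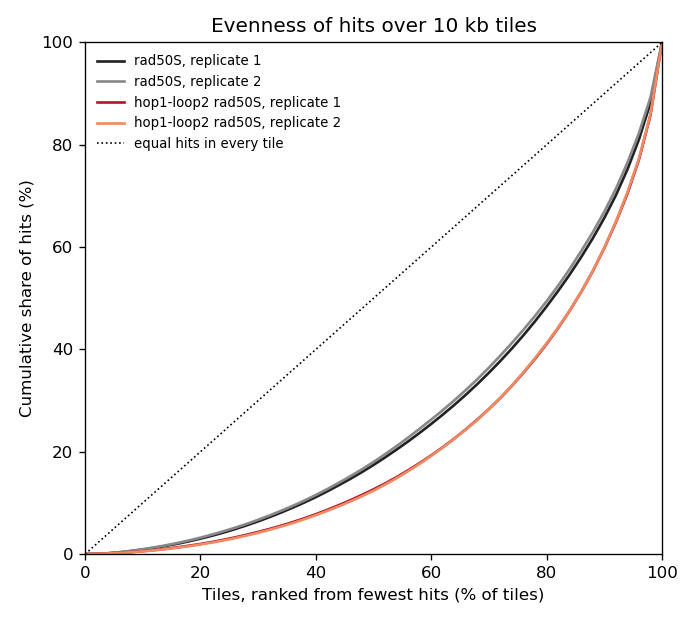
Cumulative share of hits (percent) is plotted against the percentage of 10 kb tiles, ranked from the fewest hits upward in each of the 4 libraries, with a dotted line for equal hits in every tile. The *hop1-loop2 rad50S* replicates, with Gini coefficients of 0.561 and 0.562, run together below the *rad50S* replicates, with 0.483 and 0.471.

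Over single positions the genotypes were less clearly apart. All libraries were thinned to 6277735 hits, the total of the smallest. The number of strand positions with a hit was 856251 and 897094 in *rad50S* and 850416 and 887259 in *hop1-loop2 rad50S*, and the genotypes overlapped. The effective number of positions was 199110 and 207554 in *rad50S* and 176215 and 194851 in *hop1-loop2 rad50S*, a difference of -8.75% in the means (-4.17% without replicate 1 and -13.3% without replicate 2 of *hop1-loop2 rad50S*). The genotypes did not overlap, but the gap between their nearest libraries was smaller than the difference between the *hop1-loop2 rad50S* replicates. The strongest 1% of positions held 29.3% and 29.6% of the hits in *rad50S* and 31.9% and 30.7% in *hop1-loop2 rad50S*. Positions with a single hit were 44.7% and 45.8% of all positions in *rad50S* and 47.2% and 47.5% in *hop1-loop2 rad50S*. In bins of 100 bp the strongest 1% held 34.8% and 38.0% in *rad50S* and 43.3% and 42.8% in *hop1-loop2 rad50S*, but the number of bins with a hit also differed, at 71003 and 88821 in *rad50S* and 97136 and 96513 in *hop1-loop2 rad50S*.

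A tile changed through both the number of positions cut and the hits at each. In unthinned libraries the median gaining tile with at least 1000 hits in each library, 338 of the 380, had a log2 change in hits of 0.97, of which the number of positions gave 0.49 and the hits per position 0.51 as medians taken separately. The median losing tile, of 410 among the 600, had a log2 change of -1.21 in hits, -0.44 in positions and -0.74 in hits per position. The number of positions rises with the number of hits in any tile, so the split between them depends on depth.

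The arrangement of hits inside tiles differed too. In 931 tiles with enough hits, thinned to equal numbers, the median share of hits that lay in a different bin of 100 bp was 18.5% between the genotypes, 8.71% between *rad50S* replicates and 8.19% between *hop1-loop2 rad50S* replicates. This is about 2 times the replicate value, where the share between tiles was about 5 times as large. These ratios rest on unlike bins and numbers of hits (a median of 3348 per tile here), so they do not rank the changes. The median share in a different bin was 18.0% in gaining, 18.9% in losing and 18.5% in other tiles. The strongest position of a tile was the same in 68.0% of tiles between *rad50S* replicates, in 69.3% between *hop1-loop2 rad50S* replicates, and in 55.3% and 43.2% between the genotypes.

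The regional change was seen with the hits of each strand alone. The log2 changes of Watson and Crick hits had a correlation of 0.97 over tiles, and 974 of the 980 called tiles had the same sign on both strands. The redistributed share was 31.6% from either strand alone. Spo11 cuts both strands at a break, so the strands of a library are not independent. The called tiles were also chosen on both strands together. This agreement is therefore a description and no separate support.

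Hop1 on chromatin was available per chromosome from SNP-ChIP of cultures without *rad50S*, collected at 3 h, and for both wild type and *hop1-loop2* a single set of ChIP and input was used, so these values have no replicate. The other SNP-ChIP sets of the series were not analysed here. Depth was unequal. Counting both genomes, the *hop1-loop2* input held 278247 reads and the wild-type input 5549193, and the ChIP libraries held 6547731 and 3875169 in this order. The *hop1-loop2* enrichments thus rest on a shallow input. The ratio of Hop1 enrichment on each chromosome, in *hop1-loop2* over wild type and relative to all SK1 reads, was lowest on chromosomes I (0.727), III (0.746) and VI (0.772). Chromosomes I and VI also lost the most break share, with ratios of 0.379 and 0.577, while chromosome III had 0.924. Across 16 chromosomes the log2 ratios of Hop1 and of break share had a Pearson r of 0.80 and the ratios a Spearman rho of 0.68. Without chromosomes I, III and VI, r was 0.51 over 13. Chromosomes share their libraries, so these are descriptions. Chromosome IX had a Hop1 ratio of 0.960 and a break share ratio of 1.04, although 24.6% of its hits would have to change tile.

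The remaining CC-seq genotype, *hop1-loop2 pch2 rad50S*, was not compared here, but its libraries give a further reading of the same tiles. The 380 gaining tiles held 58.7% and 51.6% of the hits in its replicates, and the 600 losing tiles 24.7% and 31.3%. These libraries are smaller, with 3614810 and 1026669 hits.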

How the data were processed

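The authors aligned CC-seq reads with Bowtie2 through TermMapper to SK1 ASM205788v1 and deposited hits per position and strand as HpM, an RPM unit with a total of 1000000 per library. 100% of the values were whole multiples (within 0.1) of 1 read. SNP-ChIP values are counts per chromosome of either genome, as deposited, and of 2 wild-type sets numbered 2 in the titles, the one listed beside *hop1-loop2* was used. A step that removes duplicate reads is not given in the sources used here, and PCR reads are not independent molecules. Groups follow the titles, which the genotype entries of the CC-seq labels contradict. The members and lists were chosen with earlier results of these data known.

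Tiles were tested with limma 3.58.1 (trend) on log2(HpM + 1), a scale that understates changes of low tiles, with 2 libraries per genotype. Alternatives used the recovered reads in DESeq2 1.42.0 and edgeR 4.0.16, other pseudocounts, tiles, run definitions and libraries. The fit was tested on simulated data. 1 tile had no hits. Named tiles are the 3 with the largest gain and loss of share and the 3 with the largest and smallest log2 change (mean of at least 50 HpM), and named runs the 3 longest in each direction, with ties settled by the larger change of share. Each named tile also had to be called at adjusted p below 0.05 with no overlap between the genotypes. Neither property is therefore a further test of these tiles. Software was R 4.3.3 and Python 3.11.15 with matplotlib 3.10.9, numpy 2.4.6, scipy 1.17.1 and pandas 2.3.3.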

Additional observations from a re-analysis of the deposited data

How the results depend on the processing

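All 12 named tiles kept their direction and an adjusted p below 0.05 in limma, edgeR or DESeq2 under each of 12 settings that keep the tiles (144 fits, largest adjusted p 0.000234), though their log2 changes shrank to between -1.88 and 2.25 with every strand position counted as 1, from between -4.03 and 4.27. The named tiles were chosen as the most changed in these same libraries, so that outcome was close to assured and is no further test. Counts of called tiles stayed within 1.5 times under all settings but tile size. With tiles of 5 kb, 1849 of 2416 were called (718 gaining, 1131 losing, in 697 runs, with the longest losing run at 80 kb), and with tiles of 20 kb 511 of 612 (207 and 304, in 238 runs). The redistributed share was 33.8% and 27.2% with these tiles, and the Gini difference 0.075 with tiles of 5 kb. With every strand position counted as 1 the redistributed share was 14.5% and the Gini difference 0.031. Counting once drops repeated breaks together with copied reads, and the part of each was not tested. The longest losing run was 130 kb without chromosomes I, III and VI and 120 kb with a 1.5-fold minimum. Leaving out each library in turn gave 883 to 998 called tiles, 342 to 394 gaining, 541 to 612 losing, 389 to 416 runs, longest gaining runs of 130 to 200 kb and longest losing runs of 130 to 210 kb, redistributed shares of 30.6% to 32.7%, Gini differences of 0.079 to 0.091 and differences in effective positions of -4.17% to -13.3%. The lone library of a genotype is then assumed to vary like the other genotype.

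The replicate numbers were not treated as pairs, since they are not stated to mark shared batches. Deviations of libraries with the same number had a correlation of 0.095 over tiles. With the number as a replicate block, 1013 tiles were called, 397 gaining and 616 losing.

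Depth limits low tiles, of which 33 had a mean below 50 HpM. With 2 libraries per genotype, no exact test over libraries can go below p = 0.333, and the tile tests measure only the spread between these libraries.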
